A study of Rattus norvegicus with 8 samples.

Results

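Neurons treated with the antioxidant protein CAT-SKL alone were compared with neurons treated with amyloid-beta oligomers (ADDL) alone. The comparison used 4 of the 8 arrays of the study, 2 for each agent. All cultures were primary neurons taken at E18 from the hippocampus and cortex of Sprague Dawley rats, kept for 7 days in vitro and then given 1 µM CAT-SKL or 1 µM ADDL for 24 h. Each array set RNA of 1 treated culture, labelled with Cy5, against RNA of vehicle-treated neurons, labelled with Cy3, with no dye swap. The vehicle is not named in the labels, which also do not say whether its RNA was 1 pool. The other 4 arrays held neurons given both agents in turn, 24 h each. They were in the same fit, where the ADDL+CAT-SKL pair added to the estimate of the spread and the CAT-SKL+ADDL pair, counted as 1 sample, did not, and their values are given for a few genes. Paired arrays of a group are biological replicates per the design text, which does not say whether they came from separate litters, so p-values cover the spread among these cultures only.

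ADDL are soluble oligomers of amyloid-beta, the peptide released from amyloid precursor protein by beta- and gamma-secretase, and they bind to synapses and disturb them. CAT-SKL is a catalase that carries the peroxisomal targeting signal SKL and is taken up by cells. Catalase breaks down hydrogen peroxide in peroxisomes, next to peroxiredoxins and glutathione peroxidases, which remove peroxides in other compartments. Neither agent is the other's control, and the comparison asks where the transcript levels left by the antioxidant and by the oligomers differ.

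A log2 ratio above 0 means more transcript in the treated culture than in vehicle, and the difference given for a gene is the mean ratio of the CAT-SKL arrays minus that of the ADDL arrays. A log2 difference of 1 stands for a 2-fold difference. Vehicle stands in both sets of ratios, and for some genes its own difference between the sets is given beside the result. The arrays measured 22459 genes above background, 12944 of them with a symbol, and between 77.0% and 78.3% of all probes were well above background in Cy5 on the 4 arrays. All 20 measured pan-neuronal genes of a list of 22 were above background on all 4 arrays. So were all 25 measured astrocyte genes, and the cultures therefore also held RNA of genes that mark astrocytes.

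The 4 arrays did not group by agent. Across genes, the ratios of CAT-SKL 1 correlated with those of ADDL 2 at r = 0.693, and with those of its own replicate CAT-SKL 2 at r = 0.558. ADDL 1 and ADDL 2 correlated at r = 0.512, and CAT-SKL 2 and ADDL 1 at r = 0.111. The labels do not say whether these arrays share vehicle RNA, and genes are not independent replicates. The SD of the difference between arrays over all genes was 0.167 for the CAT-SKL pair and 0.158 for the ADDL pair, against 0.144 to 0.205 for pairs of one array from each group. In duplicate spots, CAT-SKL 1 differed less from both CAT-SKL+ADDL arrays (SD 0.103 and 0.109) than from CAT-SKL 2 (SD 0.153). CAT-SKL 2 differed least from ADDL+CAT-SKL 1 (SD 0.112). A gene that shows this split is Cdhr1, a photoreceptor cadherin, chosen after its values were seen. Its log2 ratio was 2.43 on CAT-SKL 1, 0.11 on CAT-SKL 2, 2.28 on ADDL 1 and 2.17 on ADDL 2. It was 1.82 on both CAT-SKL+ADDL arrays, and 0.13 and 0.026 on the ADDL+CAT-SKL arrays. Whether samples were exchanged between groups was not tested, and an exchange would bear on every difference given below.

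No gene differed between the agents at an adjusted p below 0.05 (0 of 22459, 0%, in limma with Benjamini-Hochberg adjustment). The smallest adjusted p was 0.541. At an unadjusted p below 0.05 there were 1953 genes (8.7%), where 1123 would be expected if all genes were unchanged. Of these, 775 (3.45%) read higher after CAT-SKL and 1178 (5.25%) higher after ADDL. Where loess was replaced by centring each array on its median, that split turned to 1704 and 562. The vehicle channel, which held no treated RNA, gave 1881 genes (8.38%) at an unadjusted p below 0.05 between the same sets of arrays, and 0 after adjustment. The median absolute difference between the agents was 0.0755, and the median absolute difference between replicates was 0.0908 for CAT-SKL and 0.0898 for ADDL. The first is a difference between means of 2 arrays and the others are differences between single arrays, so their sizes cannot be compared directly. No gene named here had an adjusted p below 0.541, and the differences below are given with the standard error (SE) of limma.

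**Figure D1:**
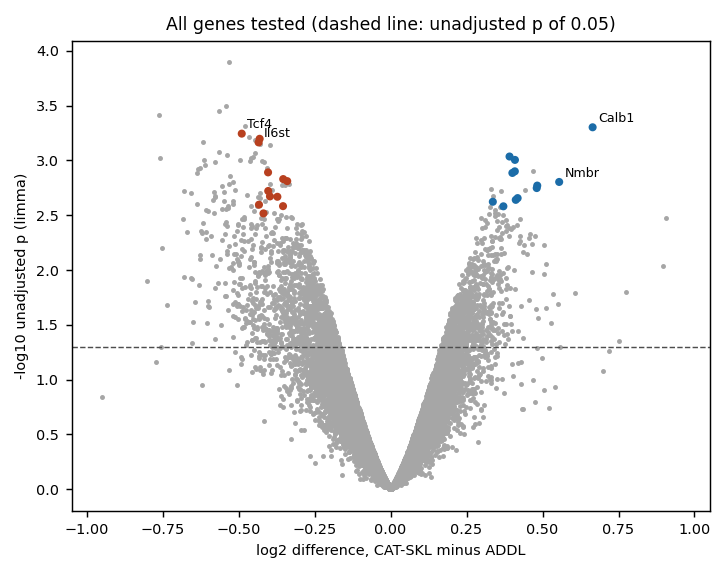
Each point is a gene, with the log2 difference between CAT-SKL and ADDL on the x axis and -log10 of the unadjusted limma p on the y axis; coloured points are the 12 named genes in each direction with the smallest p. Of 22459 genes, 1953 lie above the dashed line and none passed adjustment. The 1 gene beyond 1 on the log2 scale lies outside the axes, at -2.60, and rests on CAT-SKL 2 alone.

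Among genes with a symbol whose CAT-SKL arrays both lay above both ADDL arrays, a pattern seen in 4110 of 22459 genes (18.3%), the smallest p belonged to Calb1. It encodes calbindin, a calcium buffer of interneurons and of granule cells of the dentate gyrus. Its log2 ratios were 0.28 and 0.62 on the CAT-SKL arrays and -0.31 and -0.12 on the ADDL arrays. The agents thus stood on opposite sides of vehicle, with a difference of 0.66 ± 0.12 (SE, limma adjusted p = 0.541, 95% interval 0.39 to 0.94).

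Oxr1, a gene known for protecting cells from oxidative damage, read 0.010 and -0.018 after CAT-SKL and -0.45 and -0.34 after ADDL. It therefore stayed near vehicle on the CAT-SKL arrays and lay below it on the ADDL arrays, and the difference was 0.39 ± 0.077. Uap1, an enzyme that makes UDP-N-acetylglucosamine for glycosylation, had the same form, with -0.036 and -0.0059 against -0.41 and -0.45, and its second probe gave a difference of 0.23. Clic1, an intracellular chloride channel protein, read -0.097 and 0.089 against -0.55 and -0.42. Kat2a, a histone acetyltransferase, read 0.12 and -0.044 against -0.38 and -0.28. In these 4 genes the ADDL arrays lay farther from vehicle than the CAT-SKL arrays.

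Nmbr, the receptor for neuromedin B, read -0.14 and 0.24 after CAT-SKL and -0.53 and -0.48 after ADDL, a difference of 0.56 ± 0.12. Adgre1, which encodes the macrophage and microglia surface protein F4/80, lay above vehicle on all 4 arrays, at 0.65 and 0.50 against 0.21 and 0.13. Kpna4, a nuclear import receptor, read 0.36 and 0.28 against -0.28 and -0.037. Trappc2, a subunit of a tethering complex for vesicles between endoplasmic reticulum and Golgi, read 0.30 and 0.36 against -0.15 and -0.0037, and its vehicle signal was itself 0.11 higher on the CAT-SKL arrays. The remaining genes of the 12 were Csrp3, a muscle LIM protein, Rsl24d1, a factor of ribosome assembly, and Cox11, a copper chaperone for cytochrome c oxidase. Their differences were 0.42, 0.41 and 0.34, and the other probes of Cox11 lay between -0.11 and 0.078.

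**Figure D2:**
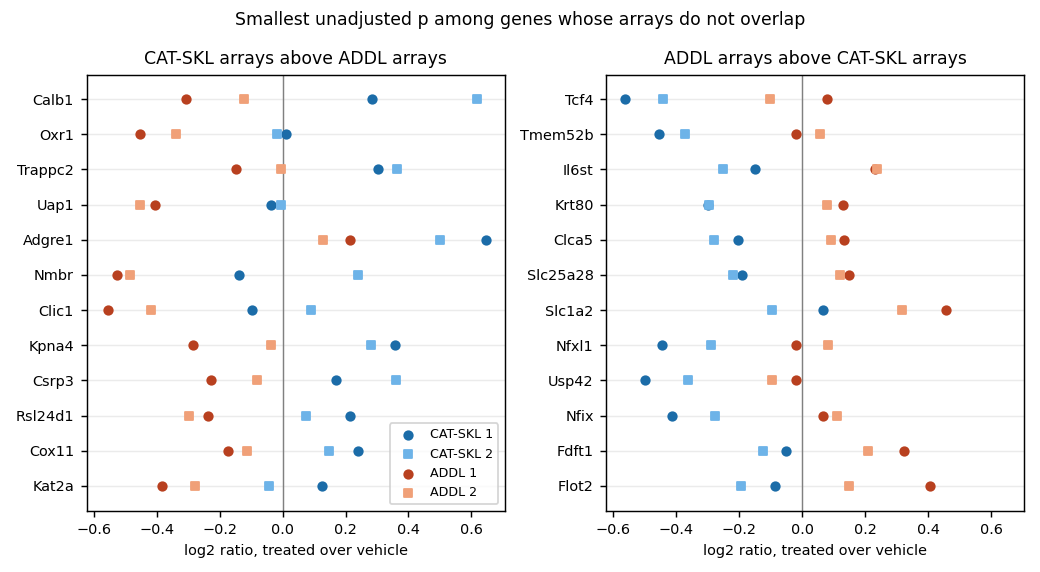
Log2 ratio of treated over vehicle (x axis) on each of the 4 arrays for the 12 named genes with the smallest p in each direction; circles are replicate 1 and squares replicate 2, blue for CAT-SKL and red for ADDL. By the rule for these genes the groups do not overlap; Calb1 spans from -0.31 on ADDL 1 to 0.62 on CAT-SKL 2.

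In the other direction, 4933 genes (22%) had both ADDL arrays above both CAT-SKL arrays, so that 9043 genes (40.3%) had groups that did not overlap. Tcf4, a helix-loop-helix transcription factor of neuronal development, had the smallest p, with log2 ratios of -0.56 and -0.44 after CAT-SKL and 0.078 and -0.10 after ADDL. Its difference was -0.49 ± 0.089 (SE, limma adjusted p = 0.541), and the CAT-SKL arrays were those away from vehicle. Il6st, which encodes gp130, the shared signal transducer of the interleukin-6 family, read -0.15 and -0.25 after CAT-SKL and 0.23 and 0.24 after ADDL. The agents stood on opposite sides of vehicle, with a difference of -0.43 ± 0.081. Nfix, a nuclear factor I transcription factor of neural development, read -0.41 and -0.28 against 0.065 and 0.11, and its second probe gave a difference of -0.43. Usp42, a deubiquitinase, read -0.50 and -0.36 against -0.020 and -0.096, and Nfxl1 -0.44 and -0.29 against -0.021 and 0.082.

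Slc1a2, the main glutamate transporter of astrocytes, read 0.065 and -0.096 after CAT-SKL and 0.46 and 0.32 after ADDL, a difference of -0.40 ± 0.089. Its second probe gave -0.32. The astrocyte list to which it belongs did not separate the agents: its medians were 0.75 and 0.26 on the CAT-SKL arrays and 0.31 and 0.58 on the ADDL arrays, and its summed Cy5 signal was 61580, 35600, 42700 and 58550 in the same order. In such cultures, fewer cells of a type and less RNA per cell cannot be told apart. Slc25a28, a mitochondrial iron importer, read -0.19 and -0.22 against 0.15 and 0.12. Flot2, a membrane raft scaffold, read -0.085 and -0.20 against 0.41 and 0.15, with vehicle 0.20 higher on the CAT-SKL arrays. Krt80, a keratin, and Clca5 had differences of -0.40 and -0.35, with vehicle 0.11 higher on the CAT-SKL arrays for Clca5. Tmem52b had -0.43, but its second probe gave 0.10. Its vehicle was 0.12 higher on the CAT-SKL arrays, and its log2 Cy5 signal was dim, at 6.26 to 6.62.

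Differences of 1.5-fold or more were found in 8 genes in favour of CAT-SKL (0.0356%) and in 44 in favour of ADDL (0.196%). All 8 had their higher CAT-SKL value on CAT-SKL 2, and all 44 their higher ADDL value on ADDL 1. The 8 all had symbols, and 6 of the 44 did. The largest in favour of CAT-SKL was Ucn, which encodes urocortin, a peptide of the corticotropin-releasing hormone family. It read -0.15 and 0.63 after CAT-SKL and -0.67 and -0.66 after ADDL, a difference of 0.91 ± 0.22 (SE, limma adjusted p = 0.541). Emp1, a membrane protein gene, read -0.71 and 0.52 against -0.81 and -0.89, so that CAT-SKL 1 lay with the ADDL arrays. Cryab, a small heat shock protein, read -0.75 and 0.49 against -0.96 and -0.74 and overlapped. Of the genes in favour of ADDL, Atf6, a sensor of unfolded protein in the endoplasmic reticulum, read -0.53 and -0.37 against 0.53 and -0.23. The distance for Atf6 came mostly from ADDL 1, and its second probe gave a difference of -0.22, less than 1.5-fold. For Uncx and Rfx5, which encode transcription factors, and for Ttc36, vehicle was 0.51, 0.52 and 0.78 higher on the CAT-SKL arrays, and it is the denominator of their ratios. The vehicle signal of each was lowest on ADDL 1. Its log2 Cy3 there was 7.33 for Uncx, 7.05 for Rfx5 and 7.22 for Ttc36, against 8.28, 7.69 and 8.00 on ADDL 2. Ucn, Emp1, Cryab, Cdhr1, Uncx, Rfx5, Ttc36 and the gene without a symbol were chosen after their values were seen.

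Neuropeptide genes had the largest median difference of the 36 gene lists compared, at 0.28, against -0.0048 over all genes tested. Neuropeptides are made from precursor proteins and released from dense-core vesicles, in the cortex and hippocampus mostly by GABAergic interneurons, and the genes of several of them respond to cyclic AMP and activity. Of 19 measured genes in the list of 20, 17 read higher after CAT-SKL, 14 with arrays that did not overlap (18.3% of all genes), 0 passed adjustment and 6 had an unadjusted p below 0.05 in that direction (3.45% of all genes). The 6 were Crh, Penk, Cort, Nts, Adcyap1 and Npy. To show the start regions of this group, the promoters of the 4 with an entry in the RefSeq table (Cort, Nts, Adcyap1 and Npy) follow, with that of Ucn, the largest difference in favour of CAT-SKL. Each is 300 bases long, runs 5′ to 3′ to 50 bases past the gene's start, and has build GRCr8 coordinates. Capitals mark the core TGACG or, for the other strand, CGTCA, of the cyclic AMP response element TGACGTCA.
Cort, chr5:164845075-164845374, minus strand: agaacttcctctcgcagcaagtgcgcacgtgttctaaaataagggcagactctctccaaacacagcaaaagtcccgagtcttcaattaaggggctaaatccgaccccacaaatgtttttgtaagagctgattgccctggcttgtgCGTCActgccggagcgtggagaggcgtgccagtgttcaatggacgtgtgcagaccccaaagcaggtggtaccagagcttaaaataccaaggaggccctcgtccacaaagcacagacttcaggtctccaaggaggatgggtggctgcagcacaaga
Nts, chr7:39460839-39461138, minus strand: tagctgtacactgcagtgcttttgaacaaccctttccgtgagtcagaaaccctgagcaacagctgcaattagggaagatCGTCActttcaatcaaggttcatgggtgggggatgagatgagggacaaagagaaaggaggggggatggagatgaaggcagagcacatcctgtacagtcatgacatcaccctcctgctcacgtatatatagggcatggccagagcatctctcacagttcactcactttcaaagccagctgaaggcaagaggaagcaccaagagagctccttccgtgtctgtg
Adcyap1, chr9:120556424-120556723, minus strand: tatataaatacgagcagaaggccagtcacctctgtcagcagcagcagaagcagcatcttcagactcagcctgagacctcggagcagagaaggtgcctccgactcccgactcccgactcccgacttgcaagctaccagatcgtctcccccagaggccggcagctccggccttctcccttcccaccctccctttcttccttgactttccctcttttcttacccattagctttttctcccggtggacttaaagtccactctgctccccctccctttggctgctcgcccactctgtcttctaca
Npy, chr4:80211861-80212160, plus strand: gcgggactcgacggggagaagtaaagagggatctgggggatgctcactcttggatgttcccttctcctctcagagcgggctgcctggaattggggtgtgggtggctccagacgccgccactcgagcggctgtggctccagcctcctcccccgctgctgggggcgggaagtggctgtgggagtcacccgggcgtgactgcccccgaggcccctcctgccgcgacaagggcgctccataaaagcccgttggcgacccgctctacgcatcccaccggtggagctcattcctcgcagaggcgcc
Ucn, chr6:30957836-30958135, plus strand: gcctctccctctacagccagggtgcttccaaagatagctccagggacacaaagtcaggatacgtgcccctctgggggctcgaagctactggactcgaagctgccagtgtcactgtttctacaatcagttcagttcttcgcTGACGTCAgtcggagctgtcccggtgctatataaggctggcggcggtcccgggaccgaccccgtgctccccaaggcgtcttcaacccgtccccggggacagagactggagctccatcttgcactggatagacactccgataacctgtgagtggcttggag
The full element TGACGTCA, which reads the same on both strands, was in the Ucn window. It was in 612 of all 33469 promoters (1.83%), and the core TGACG or CGTCA, both of which overlap in the full element, was in 7097 (21.2%). Of the 14 neuropeptide genes of the list with a promoter entry, 3 held the full element (Cartpt, Sst and Vgf) and 10 a core. Among the printed genes, Cort and Nts held 1 core each, and the windows of Adcyap1 and Npy held none. A match describes these letters only.

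Crh, the corticotropin-releasing hormone that drives the stress axis and is also made by cortical interneurons, lay above vehicle on all 4 arrays, at 0.65 and 0.91 after CAT-SKL and 0.48 and 0.33 after ADDL. The difference was 0.37 ± 0.10 (SE), and its second probe gave 0.45. Cort, the somatostatin-like peptide cortistatin of interneurons, was also above vehicle throughout, at 1.23 and 0.85 against 0.81 and 0.32. Npy, neuropeptide Y, read 0.89 and 0.56 against 0.36 and 0.52, with vehicle 0.17 higher on the CAT-SKL arrays. The CAT-SKL and ADDL values of Cort and Npy nearly touched, since the lower CAT-SKL value exceeded the higher ADDL value by little. Their differences were 0.48 ± 0.17 and 0.28 ± 0.12.

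A second set of peptide genes read highest on CAT-SKL 2 alone. Penk, the enkephalin precursor, read 0.088 on CAT-SKL 1 and 1.09 on CAT-SKL 2, against -0.23 and -0.38 on the ADDL arrays, a difference of 0.90 ± 0.26 (SE, limma adjusted p = 0.541). Adcyap1, the precursor of the peptide PACAP, read -0.45 and 0.079 against -0.53 and -0.59. Nts, neurotensin, read -0.26 and 0.060 against -0.46 and -0.36. Pdyn, the dynorphin precursor, read -0.28 and 0.50 against -0.37 on both ADDL arrays, and Pnoc, the nociceptin precursor, -0.60 and 0.28 against -0.68 and -0.64. Gal, galanin, read -0.79 and 0.17 against -0.82 and -0.74 and overlapped. In Adcyap1, Pdyn, Pnoc and Gal, CAT-SKL 1 lay within 0.1 of an ADDL array. Without CAT-SKL 2 the median of the list was 0.11, and without any other of the 4 arrays it was 0.24 to 0.30. Sst, somatostatin, and Calcb, a calcitonin gene-related peptide, were the 2 genes that read lower after CAT-SKL, by -0.083 and -0.054, with vehicle 0.14 higher on the CAT-SKL arrays for Sst.

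**Figure D3:**
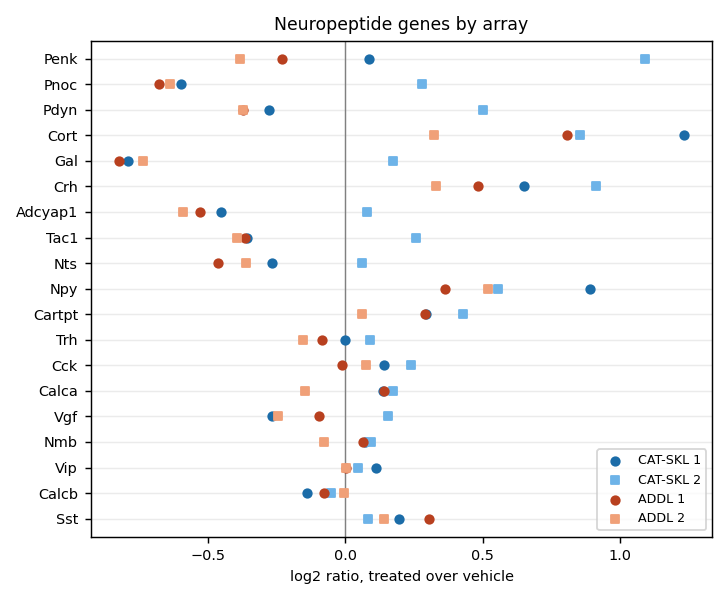
Log2 ratio of treated over vehicle (x axis) for the 19 measured neuropeptide genes on each array, ordered by the difference between the agents. Penk reaches 1.09 on CAT-SKL 2, while CAT-SKL 1 lies beside the ADDL arrays in Pnoc, Pdyn, Gal and Tac1.

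The corticotropin-releasing hormone family was looked at as a whole after the values of Ucn and Crh had been seen, and so supports nothing by itself. Crhbp, the binding protein of the hormone, read 0.041 and 0.66 against -0.27 and -0.24, a difference of 0.61 ± 0.20 (SE). Crhr1, the main receptor in the brain, read 0.032 and 0.031 against -0.16 and -0.14, a difference of 0.18 ± 0.075. Crhr2 read 0.048 and 0.0023 against -0.068 and -0.070, a difference of 0.094 ± 0.072, and its signal was near background. It was above background on both ADDL arrays and on neither CAT-SKL array. Its log2 Cy5 signal was much the same on all arrays, at 6.07 and 6.02 after CAT-SKL and 5.99 and 6.08 after ADDL. Ucn2, at -0.24 and -0.012 against -0.14 and 0.019, overlapped, and its vehicle was lower on the CAT-SKL arrays (-0.11).

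Activity-dependent genes were set beside the peptide genes, as markers of how active the cultures were. Immediate early transcription factors had array medians of -0.29 and 0.048 after CAT-SKL and -0.078 and -0.19 after ADDL, and activity-regulated effectors of -0.35 and 0.019 against -0.27 and -0.31. In both lists CAT-SKL 2 was the highest array and CAT-SKL 1 the lowest. Without CAT-SKL 2 the median differences of these lists were -0.067 and -0.097, against 0.052 and 0.12 with all arrays. Without CAT-SKL 1 they were 0.19 and 0.295, and with arrays centred on the median 0.18 and 0.32. Crem, a cyclic AMP-responsive repressor, read -0.40 and -0.029 against -0.55 and -0.51, and Fosl1, a partner of Jun, -0.50 and -0.0050 against -0.60 and -0.61. Atf3, a stress-induced factor, went the other way, at 0.18 and -0.10 against 0.44 and 0.36. The part of culture activity in the peptide differences was not tested.

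The catalase transcript itself had overlapping arrays. Cat read -0.16 on both CAT-SKL arrays and -0.48 and -0.031 on the ADDL arrays, a difference of 0.099 ± 0.13 (SE, 95% interval -0.21 to 0.41). The difference came from ADDL 1 and was -0.13 without it. The gene is that of the rat, and the labels do not say which species the catalase in CAT-SKL comes from.

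Genes for the removal of peroxide and superoxide had a median difference of 0.080, with array medians of 0.096 and 0.024 after CAT-SKL and -0.066 and -0.015 after ADDL. Of 23 measured genes of 24, 18 read higher after CAT-SKL, 13 with arrays that did not overlap (18.3% of all genes) and 1 with ADDL above (22% of all genes), and 0 passed adjustment. Prdx2, a cytosolic peroxiredoxin, read 0.16 and 0.14 against -0.15 and -0.064, a difference of 0.26 ± 0.076 (SE). Txn2, the mitochondrial thioredoxin, read 0.096 and 0.15 against -0.15 and -0.058, a difference of 0.23 ± 0.076. Vehicle was 0.095 lower on the CAT-SKL arrays for Txn2 and 0.065 lower for Prdx2. Txnrd1, which reduces thioredoxin with NADPH, read 0.23 and 0.16 against -0.013 and 0.062. Gpx1, the main cytosolic glutathione peroxidase, was the gene with ADDL above, at 0.21 and 0.0039 against 0.25 and 0.30. The superoxide dismutases Sod1, Sod2 and Sod3 overlapped, with differences of -0.067, -0.070 and -0.049, and vehicle was 0.11 higher on the CAT-SKL arrays for Sod3. Over the alternatives, the median of the list ran from 0.055 without ADDL 1 to 0.25 with arrays centred on the median.

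Related redox lists held genes of both directions. NRF2 is the transcription factor that induces antioxidant enzymes, and its 26 measured targets had a median difference of -0.021, or 0.13 with arrays centred on the median. Srxn1, sulfiredoxin, which repairs overoxidised peroxiredoxins, read -0.049 and 0.12 against -0.36 and -0.27, a difference of 0.35 ± 0.086 (SE). The metallothioneins Mt1 and Mt2A, which bind zinc and copper, read higher after ADDL, with differences of -0.27 ± 0.089 and -0.34 ± 0.12 and non-overlapping arrays. Hmox1, heme oxygenase 1, read 0.68 and 0.27 against 0.40 and 0.75 and overlapped. Among NADPH oxidase genes, Rac2, a small GTPase of the phagocyte enzyme, read 0.69 and 0.71 against 0.44 and 0.11, a difference of 0.42 ± 0.11.

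Peroxisomes are the compartment to which CAT-SKL is targeted. Peroxisome biogenesis genes had a median difference of -0.013 over 22 measured genes, and peroxisomal enzymes and transporters of -0.027 over 31; both turned above 0 with arrays centred on the median (0.071 and 0.047). In these lists 0 genes had an unadjusted p below 0.05 (8.7% of all genes). Pex5, the receptor that imports proteins ending in SKL, read -0.13 and 0.040 against -0.13 and -0.31 and overlapped. Pex2, an export ligase for that receptor, read 0.32 and 0.18 against 0.044 and 0.15, a difference of 0.15 ± 0.084.

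Proteasome subunits, which form the chamber and cap of the main protein-degrading complex, had a median difference of 0.092. Of 30 measured genes of 31, 26 read higher after CAT-SKL, 16 with arrays that did not overlap (18.3% of all genes), and 0 passed adjustment. Psma1, a ring subunit, read 0.096 and -0.0057 against -0.32 and -0.16, a difference of 0.28 ± 0.086 (SE). Psmb7, a catalytic subunit, read 0.16 and 0.15 against -0.18 and -0.018, and Psmb1 0.063 and 0.077 against -0.21 and -0.063. ADDL 1 had the lowest median of the list, at -0.12, against -0.018 on ADDL 2 and -0.0028 and 0.034 on the CAT-SKL arrays. Psmd13, a cap subunit, read -0.10 and 0.015 against -1.43 on ADDL 1 and -0.051 on ADDL 2, so its difference of 0.70 ± 0.35 came from 1 array. The median of the list was 0.045 without ADDL 1 and 0.28 with arrays centred on the median.

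Unfolded protein and integrated stress response genes read lower after CAT-SKL in 18 of 28 measured genes of 30, 10 of them with arrays that did not overlap (22% of all genes). The pathway slows translation and induces chaperones when proteins misfold in the endoplasmic reticulum. The list's median difference was -0.11, but 0.050 with arrays centred on the median. Ddit3, which encodes the pro-apoptotic factor CHOP, read -0.053 and -0.17 against 0.37 and 0.090, a difference of -0.34 ± 0.11 (SE). Atf5, a related transcription factor, read 0.038 and -0.22 against 0.18 and 0.24, and Trib3, a pseudokinase induced by CHOP, -0.28 and -0.29 against -0.065 and -0.040. Atf4, the factor upstream of these genes, read -0.28 and -0.16 against -0.25 and -0.24 and overlapped. The chaperone Hspa5, also called BiP, read 0.21 and -0.18 against 0.38 and 0.12 and overlapped as well, with vehicle 0.12 higher on the CAT-SKL arrays. Without CAT-SKL 2 the median of the list was -0.055.

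Cholesterol synthesis and uptake genes had a median difference of -0.078, with 19 of 26 genes lower after CAT-SKL and 12 of them with arrays that did not overlap (22% of all genes), but the median was 0.081 with arrays centred on the median. Fdft1, squalene synthase, the first enzyme committed to sterols, read -0.053 and -0.12 against 0.32 and 0.21, a difference of -0.35 ± 0.083 (SE). Hsd17b7 and Ebp, enzymes of later steps, read -0.42 and -0.36 against 0.14 and -0.17, and -0.34 and -0.29 against -0.080 and -0.093. Without CAT-SKL 1 the median of the list was -0.044.

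**Figure D4:**
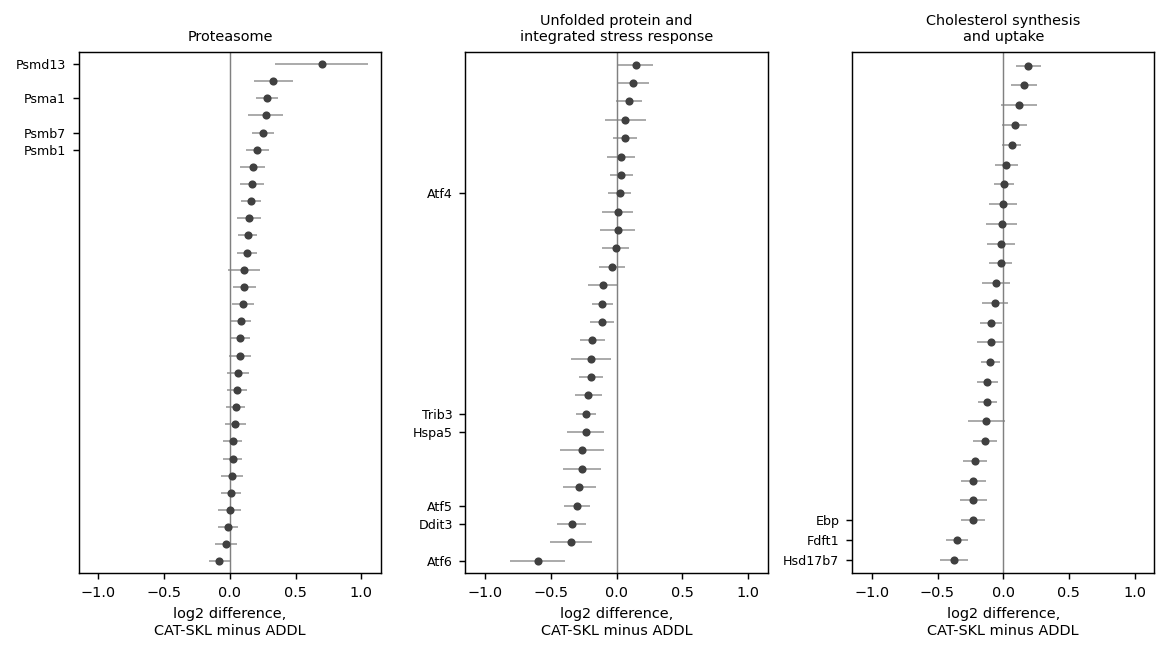
Log2 difference between CAT-SKL and ADDL (x axis, bars are limma standard errors) for every measured gene of the proteasome, unfolded protein and cholesterol lists, with the genes named in the text labelled. Psmd13 stands at 0.70 with the widest bar of its list, and Atf6 at -0.60.

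The gp130 cytokine signalling and interferon lists had medians close to 0. In the gp130 list, where Il6st belongs, Osmr, the oncostatin M receptor, had a difference of -0.18 ± 0.079, with vehicle 0.13 higher on the CAT-SKL arrays, and Il6r, the interleukin-6 receptor, of 0.18 ± 0.093, with a list median of -0.024. Of 21 measured interferon and antigen presentation genes, 6 had ADDL arrays above CAT-SKL arrays (22% of all genes) and 2 the reverse (18.3%), with a median of -0.039. Stat2, a transcription factor of the type I interferon response, read -0.29 and -0.21 against 0.11 and 0.078, a difference of -0.34 ± 0.086 (SE). Isg20, an interferon-induced RNA exonuclease, lay below vehicle throughout, at -0.49 and -0.56 against -0.22 on both ADDL arrays. Mx2, an interferon-induced GTPase, read -0.32 and -0.51 against 0.25 and -0.070. The median of the interferon list was above 0 without CAT-SKL 2 (0.014) and without ADDL 2 (0.0085). Ccl3, a chemokine of activated microglia, read 0.66 and 0.32 against 0.18 and -0.13, with vehicle 0.24 higher on the CAT-SKL arrays. The list of chemokines and inflammatory cytokines had a median of 0.063, with 18 of 24 measured genes higher after CAT-SKL. Arrays did not overlap in 8 with CAT-SKL above (18.3% of all genes) and 1 with ADDL above (22%). Over the alternatives that median ran from 0.015 to 0.20.

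Microglia genes, which mark the immune cells of the brain, were set beside these. Of 20 measured genes of 23, 12 read lower after CAT-SKL, 6 with arrays that did not overlap (22% of all genes), and 3 had CAT-SKL arrays above (18.3%). The median difference was -0.064, but it was above 0 without ADDL 1 (0.018), without CAT-SKL 2 (0.014) and with the deposited ratios (0.0080). The summed Cy5 signal was 6030 and 5429 on the CAT-SKL arrays and 7200 and 6222 on the ADDL arrays. Cx3cr1 alone made up a large share of these sums, with log2 Cy5 signals of 10.9 and 10.4 against 11.4 and 11.1. The sums therefore do not describe the microglia genes as a set. Cd68, a lysosomal protein of phagocytes, read -0.13 and -0.26 against 0.12 and -0.018, and Ctss, cathepsin S, -0.030 and -0.12 against 0.32 and 0.029. Ctss was near background, and in Cy5 it was above it on only 1 CAT-SKL array and on both ADDL arrays. Cx3cr1, the fractalkine receptor, read 0.35 and -0.071 against 0.78 and 0.35, so that the groups were separated by little, and its vehicle was lower on the CAT-SKL arrays (-0.19). Adgre1, described above, had the opposite direction. The part of microglial RNA in these differences was not tested.

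Amyloid precursor processing genes included Psen2, a presenilin, the catalytic subunit of gamma-secretase. Psen2 read -0.11 and -0.023 against 0.54 and 0.046, a difference of -0.36 ± 0.15 (SE). For Psen2 the ADDL value came mostly from ADDL 1. Abca7, a lipid transporter linked to amyloid clearance, read -0.28 and -0.26 against 0.060 and -0.082. App, the precursor of the applied peptide, read -0.23 and 0.0099 against -0.075 and -0.017, a difference of -0.063 ± 0.13 (95% interval -0.37 to 0.24). The direction for App turned without CAT-SKL 1 (0.056), with the Cy5 channel alone (0.018) and with arrays centred on the median (0.12). The list of 23 measured genes had a median of -0.040, or 0.059 with that centring.

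Presynaptic release and vesicle cycle genes were evenly split, with 16 of 32 measured genes higher and 16 lower after CAT-SKL and a median difference of -0.00037. Arrays did not overlap in 6 with CAT-SKL above (18.3% of all genes) and 8 with ADDL above (22%). Unc13a, which primes synaptic vesicles for release, read -0.78 and -0.48 against 0.025 and -0.25, a difference of -0.52 ± 0.13 (SE). Cplx2, complexin 2, a clamp of the release machinery, read -0.46 and -0.35 against 0.11 and -0.15, and Rims2, an active zone scaffold, -0.25 and -0.37 against 0.0085 and -0.045, although its second probe gave 0.036. Vamp2 and Snap25, the core fusion proteins, read higher after CAT-SKL by 0.21 ± 0.087 and 0.21 ± 0.098. Nrxn3, a presynaptic adhesion molecule, read -0.18 and -0.14 against 0.16 and 0.032, although its second probe gave 0.026. Of 36 measured axon guidance and adhesion genes, 12 had ADDL arrays above (22% of all genes) and 2 CAT-SKL arrays above (18.3%), with a median of -0.029.

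Transcripts of neuronal identity gave values in both directions. Of 20 measured pan-neuronal genes, 10 read higher and 10 lower after CAT-SKL, with 2 and 5 of them at an unadjusted p below 0.05 (3.45% and 5.25% of all genes). Ina, a neuronal intermediate filament, read -0.32 and -0.27 against 0.35 and 0.076, a difference of -0.51 ± 0.18 (SE), and Dcx, doublecortin of immature neurons, -0.72 and -0.26 against 0.046 and -0.22. Nefm, the medium neurofilament, lay the other way, at -0.27 and 0.27 against -0.48 and -0.33, a difference of 0.40 ± 0.16, as did Nsg2, a neuronal endosomal protein, at 0.22 and 0.21 against 0.033 and 0.023. In the glutamatergic list, 9 of 15 measured genes read higher after CAT-SKL, with a median of 0.036, and arrays did not overlap in 4 with CAT-SKL above (18.3% of all genes) and 1 with ADDL above (22%). Tbr1 and Tle4, transcriptional regulators of deep cortical layers, read 0.21 and 0.18 against 0.11 and -0.028, and 0.28 and 0.17 against 0.050 and 0.087. For Tbr1, vehicle was lower on the CAT-SKL arrays (-0.14), close to the size of its difference of 0.16. Its log2 Cy5 signal was dim and overlapped, at 6.62 and 6.45 against 6.56 and 6.47. Neurod2, a transcription factor of glutamatergic neurons, read -0.36 and -0.33 against -0.020 and -0.18. In the GABAergic list, which holds Calb1, 12 of 22 measured genes read higher after CAT-SKL, with a median of 0.025. Arrays did not overlap in 6 with CAT-SKL above (18.3% of all genes) and 1 with ADDL above (22%). The array medians of the GABAergic list overlapped, at 0.16 and 0.057 against 0.065 and 0.10, and its median difference was -0.0515 without CAT-SKL 1. The pan-neuronal list had a median of 0.0057 and summed Cy5 signals of 252500, 264600, 253400 and 249200 on CAT-SKL 1, CAT-SKL 2, ADDL 1 and ADDL 2. Among channels, Kcna2, a potassium channel of axons, read -0.34 and -0.20 against 0.047 and 0.034, and Cacna1a, the pore of P/Q-type calcium channels, -0.52 and -0.36 against 0.021 and -0.19, with vehicle 0.10 higher on the CAT-SKL arrays. H1f4, a linker histone, lay below vehicle on all arrays, at -0.76 and -0.64 against -0.33 and -0.40, a difference of -0.33 ± 0.093.

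Vegfa, the endothelial growth factor induced by low oxygen, read -0.35 and -0.30 after CAT-SKL and -0.0010 and 0.029 after ADDL, a difference of -0.34 ± 0.092 (SE). Its other probes gave differences between -0.57 and -0.0039. Slc2a1, the glucose transporter GLUT1, and Pdk1, an inhibitor of pyruvate dehydrogenase, are also induced by low oxygen and had the opposite direction, with differences of 0.28 ± 0.099 and 0.24 ± 0.081. Lamp2, a lysosomal membrane protein, read 0.37 and 0.17 against -0.17 and 0.058, and Ulk1, the kinase that starts autophagy, -0.026 and 0.11 against 0.22 and 0.37. Oxidative phosphorylation, ribosomal protein and tubulin genes had 0 members each with an unadjusted p below 0.05 (8.7% of all genes), with medians of 0.033, -0.023 and -0.010. With arrays centred on the median these were 0.24, 0.20 and 0.19.

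**Figure D5:**
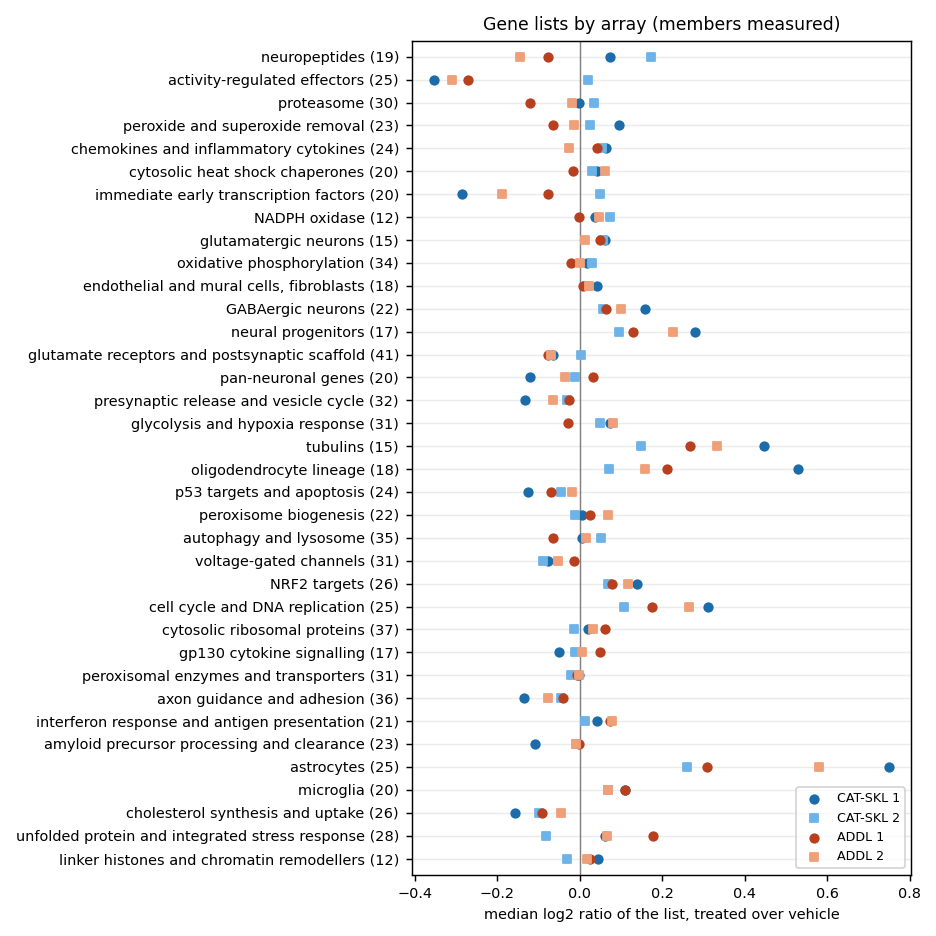
Median log2 ratio of treated over vehicle (x axis) of each of the 36 gene lists on each array, ordered by the median difference between the agents, with the number of measured genes in brackets. Neuropeptides are at the top with a median difference of 0.28; in the astrocyte row CAT-SKL 1 (0.75) and ADDL 2 (0.58) lie right of CAT-SKL 2 and ADDL 1.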

How the data were processed

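Total RNA was hybridised to 8 Agilent arrays with 2 colours on 1 slide. The deposited scanner files hold spot intensity per channel, with local background intensity, per the file headers. A log10 ratio of Cy5 to Cy3, processed by Agilent Feature Extraction 11.5 per the submitters' processing notes, is deposited beside them and again in the series table (differences up to 0.00500, medians of 0). Flags mark spots near background, outliers and saturation (0 or 1 per the file headers); no probe spot was saturated.

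Background was corrected with normexp (offset 50) and each array normalised by loess in limma 3.58.1 under R 4.3.3, giving log2 ratios computed here from the deposited intensities. Tested probes were well above background, in Cy5 or Cy3, on 2 or more of 8 arrays (25363 of 30367 probes, 67 of them lacking a value). A gene was represented by its brightest probe. Names came from matching accessions to the RefSeq table of GRCr8 (17998 probes). No genome coordinates of probes are given, since the arrays were designed on another build.

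In duplicate spots, both arrays of CAT-SKL+ADDL lay apart by roughly the spot noise (r = 0.00718 between first and second spots over 15739 probes), so they were averaged and counted as 1 sample. All 4 groups (7 samples, 3 residual degrees of freedom, 5.05 from the prior) were fitted with lmFit and eBayes, two-sided, with Benjamini-Hochberg adjustment over 22459 genes and a threshold of 0.05. The SE pools the spread over groups, and the number of arrays limits precision. Same-numbered replicates of the 2 agents did not deviate together (r = -0.0902 across genes), so no block was used. All arrays lay on 1 slide and 1 scan.

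Gene lists (36, with 852 of 961 genes measured) are described by counts and medians, without a test. The members and lists were chosen with earlier results of these data known. Named genes are those with a symbol and the smallest p among genes whose arrays did not overlap (12 in each direction), the 3 smallest-p members of each list, and Cat and App, 129 genes in all; some of them are not reported here. Other genes are given to describe a list, or are named as chosen after their values were seen. Figures were drawn with matplotlib 3.10.9. Functions were tested on simulated data. Another normalisation, background correction, filter, probe rule, sample set, a replicate block and leaving out each array were tried as alternatives.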

Additional observations from a re-analysis of the deposited data

Results flagged for a closer look

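On opposite sides of vehicle, array by array, stood the medians of 3 lists, and these differences of medians were not tested. Neuropeptide genes had medians above vehicle on both CAT-SKL arrays (0.074 and 0.17) and below it on both ADDL arrays (-0.078 and -0.15), with a median difference of 0.283. Peroxide and superoxide removal genes had medians of 0.096 and 0.024 after CAT-SKL and -0.066 and -0.015 after ADDL, with a median difference of 0.0804. The gp130 cytokine signalling list lay the other way, at -0.050 and -0.012 after CAT-SKL and 0.048 and 0.0045 after ADDL, with a median difference of -0.0241, which turned above 0 without ADDL 1 (0.0078) or without ADDL 2 (0.0026).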

How the results depend on the processing

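The count of 0 genes at an adjusted p below 0.05 was also 0 under every alternative but 3. It was 1 (Ucn) with arrays centred on the median, 8 without CAT-SKL 1, among them Penk, Emp1, Mustn1, Cryab and Cdhr1, and 2 without ADDL 2, among them Psmd13, so leaving out single arrays gave 0 to 8; these genes rest on a single array of the thinned group, which is assumed to vary like the other groups. With the replicate block the count was 0 (663 and 1002 genes at an unadjusted p below 0.05, smallest adjusted p 0.664), and the block changed no call. Without ADDL 1, 236 and 442 genes had an unadjusted p below 0.05, against 775 and 1178 with all arrays. With the deposited ratios these were 812 and 883, so the share in favour of CAT-SKL was 47.9% in place of 39.7%, and with arrays centred on the median it was 75.2%. Cryab (1.33) and Penk (1.40) passed without CAT-SKL 1. With that centring the difference turned for Acaa1a (0.040), App (0.12), Cox7a2 (0.028), Rpl7 (0.068), Tubb4b (0.12) and Tubg1 (0.079). It turned with the Cy5 channel alone for App (0.018) and Mag (0.024). Leaving out single arrays, it ran from -0.18 to 0.056 for App, -0.010 to 0.43 for Cnp, -0.0076 to 0.45 for Cyba and -0.056 to 0.35 for Tubb4a, each lowest or highest without a CAT-SKL array, and from -0.13 to 0.33 for Cat and -0.0042 to 0.45 for Rpl5, without an ADDL array. The cause was not tested. Weak signal limits precision: the median Cy5 signal of the 4 arrays was 97 to 111 over backgrounds of 24 to 26. The size of the difference in some dim genes depended on the processing. With the deposited ratios it went from 0.42 to 1.78 for Csrp3, from 0.40 to 1.27 for Adgre1, from 0.46 to 1.71 for Ccl3 and from -0.25 to -2.20 for Ctss.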

Other observations

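The cultures given both agents in turn give further values for the genes with the smallest p. Calb1 read 0.35 and 0.36 on the CAT-SKL+ADDL arrays and 0.34 on both ADDL+CAT-SKL arrays, between the values of the CAT-SKL arrays. Tcf4 read -0.45 and -0.42 after CAT-SKL+ADDL and -0.064 and -0.051 after ADDL+CAT-SKL, and Il6st -0.41 and -0.26 against 0.13 and 0.0047. Trappc2 read 0.49 and 0.43 after CAT-SKL+ADDL and -0.098 and -0.072 after ADDL+CAT-SKL. Rsl24d1 read 0.21 and 0.16 against -0.35 and -0.54. For Tcf4, Il6st, Trappc2 and Rsl24d1, chosen after their values were seen, the means of the cultures given CAT-SKL first lay nearer to CAT-SKL alone, and those of the cultures given it second nearer to ADDL alone. Other genes with the smallest p did not follow that order, so it does not describe them as a set. Oxr1 (-0.080 and -0.068), Nmbr (-0.036 and -0.049) and Slc1a2 (0.13 and 0.10) also lay nearer to CAT-SKL alone after ADDL+CAT-SKL. Penk read 0.46 and 0.43 after CAT-SKL+ADDL and 0.49 and 0.53 after ADDL+CAT-SKL. These values lay between those of the CAT-SKL arrays (0.088 and 1.09), nearer to the CAT-SKL mean of 0.59 than to the ADDL mean of -0.31.

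Astrocyte, oligodendrocyte and neural progenitor lists had the same highest and the same lowest array, and both were CAT-SKL arrays. Vim, Fabp7 and Slc1a3 are in both the astrocyte and the progenitor list, so these lists are not independent. On ADDL 1 and ADDL 2 the lists parted, with medians of 0.21 and 0.16 for oligodendrocyte genes and 0.31 and 0.58 for astrocyte genes. Summed Cy5 signals of oligodendrocyte genes were 10260 and 5835 on the CAT-SKL arrays and 7419 and 7706 on the ADDL arrays, and those of progenitor genes 23230 and 12930 against 15130 and 20730. CAT-SKL 1 was the highest and CAT-SKL 2 the lowest array for both, as for astrocyte genes. Cyba, a subunit of the NADPH oxidase, read 1.18 and 0.72 after CAT-SKL and 0.64 and 0.82 after ADDL, with vehicle lower on the CAT-SKL arrays (-0.17). Cnp, an enzyme of myelin-forming cells, read 0.47 and 0.030 against -0.063 and 0.14, with vehicle 0.11 higher on the CAT-SKL arrays.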
